A study of Mus musculus with 27 samples.

Results

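The microRNA profile of Jarid2-/- mouse embryonic stem (ES) cells was compared with that of wild-type ES cells, locus by locus. A locus entered the comparison when either genotype's column held 10 or more reads, and 950 of the 2035 mature microRNA loci did so. Of these, 757 reached 10 counts in both columns, 183 in the wild-type column alone and 10 in the Jarid2-/- column alone. At the edge of this filter, 12 loci had a highest count of exactly 10 and were kept, and 20 loci had a highest count of 9 and were not.

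The study sequenced chromatin, messenger RNA and small RNA from ES cells of 4 genotypes: wild-type, Jarid2-/-, Eed-/- and Ezh2-/-. All are labelled as the CJ7 line, were kept in serum with leukemia inhibitory factor (LIF) and received no treatment. RNA of 18 to 40 nt was cut from a gel and sequenced on a SOLiD instrument. The labels list 1 Jarid2-/- and 2 wild-type small RNA samples, but each genotype has a single column of microRNA counts, and no source used here says whether a column pools samples, or whether a mutant line is 1 clone. No difference below therefore has a replicate check, and none was tested.

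Jarid2 is a cofactor of Polycomb repressive complex 2 (PRC2), a histone methyltransferase of silenced genes whose core includes Eed and Ezh2. Jarid2 helps to bring the complex to its targets and has no known demethylase activity of its own, although it belongs to the jumonji family. A microRNA is cut from a hairpin precursor by Drosha and Dicer, which leaves a duplex of a 5p and a 3p strand. Usually 1 strand is loaded into Argonaute and the other is degraded, and the seed, bases 2 to 8 of the loaded strand, directs it to messenger RNAs.

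Levels are given in CPM (counts per 1e6), with all microRNA counts of the column as the total. The wild-type column totalled 23793733 microRNA counts and the Jarid2-/- column 8485806, so that 3 counts, the limit that a count of 0 allows, stood for 0.126 and 0.354 CPM. A log2 ratio is that of Jarid2-/- over wild-type with 1 CPM added to each, so differences between low levels appear smaller than they are. A locus is called higher or lower when this ratio is at least 2-fold. Fold differences have nothing added, and the ranges after them are exact 95% binomial intervals, which cover counting error only, since the reads were amplified by PCR and are not independent molecules. In a bulk sample, fewer cells of a type and less RNA per cell cannot be told apart.

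Several of the largest differences lay between the strands of 1 hairpin, or between relatives of nearly the same sequence, so their sequences are given here, 5′ to 3′, as the deposited tables hold them, with the seed in capitals. The first set is the pairs of arms of 5 hairpins whose arms had very different ratios.
miR-124-5p: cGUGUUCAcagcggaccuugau
miR-124-3p: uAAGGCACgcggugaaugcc
miR-22-5p: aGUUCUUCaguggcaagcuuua
miR-22-3p: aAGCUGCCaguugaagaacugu
miR-210-5p: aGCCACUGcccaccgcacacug
miR-210-3p: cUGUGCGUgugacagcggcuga
miR-294-5p: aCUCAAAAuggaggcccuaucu
miR-294-3p: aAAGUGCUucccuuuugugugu
miR-295-5p: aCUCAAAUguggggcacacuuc
miR-295-3p: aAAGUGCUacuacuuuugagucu
The 3p arms of miR-294 and miR-295 share the seed AAGUGCU, which is the defining seed of ES cell microRNAs. Their 5p arms have other seeds.

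The second set is 3 pairs of microRNAs from different genomic loci that differ by 1 base outside the seed and yet had different ratios.
miR-7a-5p: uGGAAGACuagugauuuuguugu
miR-7b-5p: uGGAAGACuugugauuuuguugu
miR-19a-3p: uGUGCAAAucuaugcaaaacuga
miR-19b-3p: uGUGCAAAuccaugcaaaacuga
miR-211-5p: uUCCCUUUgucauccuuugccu
miR-204-5p: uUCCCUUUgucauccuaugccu
On build mm9 miR-7a-5p lies at chr13:58494202-58494224 (minus strand) and miR-7b-5p at chr17:56382440-56382462. The miR-19a-3p locus is chr14:115443270-115443292, and the miR-19b-3p locus used here is chrX:50095168-50095190 (minus strand). The miR-211-5p locus is chr7:71350717-71350738 and that of miR-204-5p chr19:22825100-22825121. The sequences of miR-7a-5p and miR-19b-3p also stand at other loci, so their reads cannot be placed on the loci given here alone.

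Of the 950 loci, 155 were called higher (16.3%) and 217 lower (22.8%), together 39.2%. With the total read number that the authors' RPM values imply as the scale, the split was 256 higher and 180 lower. That scale moved the median log2 ratio of all loci by 0.39, from -0.17 to 0.21, and the ratios below are relative to the microRNA total. On that scale miR-293-3p, miR-19b-3p, miR-34a-5p, miR-210-5p and miR-145a-5p, given below as lower, were less than 2-fold from wild-type. The lower calls were concentrated on chromosome 12, in the imprinted Gtl2-Rian-Mirg cluster, where 97 of the 103 members tested were lower. Outside that cluster 155 loci were higher and 120 lower of 847, with a median of -0.02. Across all loci the 5th and 95th percentiles of the log2 ratio were -3.88 and 1.93, and 380 loci (40.0%) differed by less than 1.5-fold. The called loci closest to the threshold had log2 ratios of 1.01 and -1.04, and the nearest ones not called had 0.993 and -0.997.

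**Figure D1:**
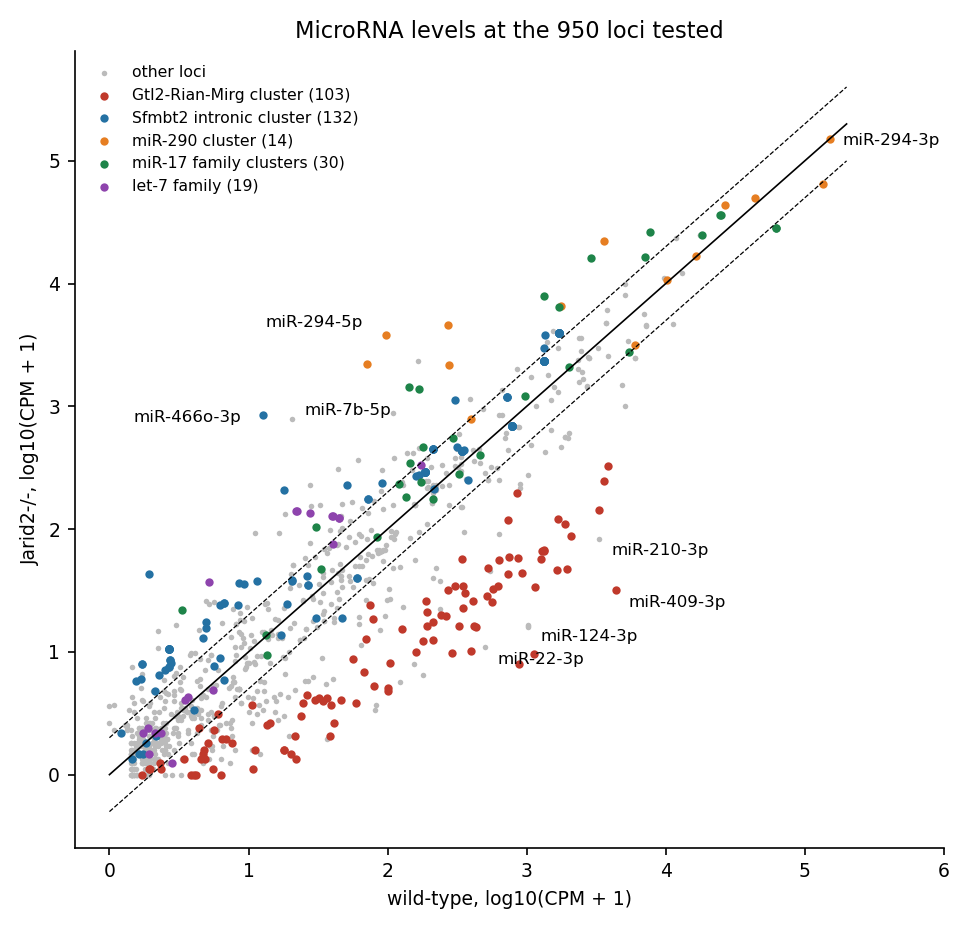
Level of each of the 950 loci in wild-type (horizontal) and Jarid2-/- (vertical), as log10 of CPM + 1, with 5 microRNA lists in colour; the solid line is equality and the dashed lines are 2-fold differences. The Gtl2-Rian-Mirg loci form a band below the diagonal, while the most abundant microRNA, miR-294-3p, sits on it.

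Among the microRNAs that make up most of the ES cell pool, miR-294-3p and miR-293-3p ranked 1 and 2 in both columns. The 10 most abundant mature names took up 51.1% of counts in wild-type and 47.2% in Jarid2-/-. The most abundant, miR-294-3p, had 3636291 counts (152826 CPM) in wild-type and 1283722 (151279 CPM) in Jarid2-/-. Its neighbour in the miR-290 cluster, miR-293-3p, had 134932 CPM in wild-type and 64340 CPM in Jarid2-/-, which was 2.10-fold lower (2.09 to 2.10). From the same cluster, miR-292-5p had 3582 CPM in wild-type and 22355 CPM in Jarid2-/-, which was 6.24-fold higher (6.19 to 6.29). The cluster, which promotes rapid division of ES cells, had 6 of 14 loci higher and 1 lower, and took 39.7% of counts in wild-type and 38.2% in Jarid2-/-.

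The labels were checked against the markers of the cells, beside 16.3% of all tested loci called higher and 22.8% lower. MicroRNA markers of ES cells, those of the miR-290 and miR-302 hairpins, had 10 of 22 tested loci higher and 1 lower, and summed to 405063 CPM in wild-type and 394452 CPM in Jarid2-/-, with 1 locus counted per distinct sequence. The defining liver microRNA, miR-122, had 0.252 CPM in wild-type and 0.118 CPM in Jarid2-/-, both arms together. Neural markers (miR-124 and miR-9) had 3 of 12 loci higher and 3 lower, and summed to 1096 CPM in wild-type and 199 CPM in Jarid2-/-. The 3 higher loci were copies of miR-124-5p and the 3 lower ones copies of miR-124-3p, so 1 sequence was called in each direction. Let-7 members had 8 of 17 higher and 1 lower, with 358 and 975 CPM. Muscle markers (miR-1 and miR-133) had 0 of 6 tested loci called, summed to 8.36 and 4.95 CPM, and 2 of their 12 loci were at 0 in each column. Markers of fibroblasts and smooth muscle (miR-143, miR-145, miR-199 and miR-214), which feeder cells also express, had 3 of 10 tested loci lower and summed to 1558 CPM in wild-type and 763 CPM in Jarid2-/-. Blood markers (miR-142, miR-223 and miR-451) had 2 of 3 lower, with 358 and 97.3 CPM. Endothelial miR-126 hairpins stood at 447 and 420 CPM, with 1 of 4 loci higher and 1 lower. Stratified epithelial markers (miR-205 and miR-203) had 2 of 4 higher, and summed to 1592 CPM in wild-type and 4253 CPM in Jarid2-/-. The part of such cells in the results below was not tested, and Jarid2 messenger RNA was not analysed here.

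Outside the imprinted cluster, the lowest ratio was that of miR-124-3p, the most abundant microRNA of neurons, at chr14:65209546-65209565. It had 24136 counts (1014 CPM) in wild-type and 133 counts (15.7 CPM) in Jarid2-/-, which was 64.7-fold lower (54.6 to 77.3). The partner strand of the same hairpin, miR-124-5p, went the other way. It had 1720 counts (72.3 CPM) in wild-type and 1497 counts (176 CPM) in Jarid2-/-, 2.44-fold higher (2.28 to 2.62). The 3p strand thus made up 93.4% (93.0 to 93.7%) of the hairpin's counts in wild-type and 8.16% (6.88 to 9.60%) in Jarid2-/-. Eed-/- and Ezh2-/- had 993 and 1599 CPM of miR-124-3p, beside the 1014 CPM of wild-type.

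A pair of widely expressed microRNAs came next. MiR-22-3p, at chr11:75277274-75277295, had 11889 counts (499.7 CPM) in wild-type and 84 counts (9.90 CPM) in Jarid2-/-, 50.5-fold lower (40.7 to 63.3), against 351 CPM in Eed-/- and 329 CPM in Ezh2-/-. Its 5p arm had 34.0 CPM in wild-type and 20.6 CPM in Jarid2-/-, which was 1.65-fold lower (1.40 to 1.96) and not called. The 5p arm was therefore the minor strand in wild-type and the major strand in Jarid2-/-. MiR-210-3p, which is induced by hypoxia and lies at chr7:148407306-148407327 on the minus strand, had 78934 counts (3317 CPM) in wild-type and 700 counts (82.5 CPM) in Jarid2-/-. This was 40.2-fold lower (37.3 to 43.4), while miR-210-5p was 2.30-fold lower (2.06 to 2.56). Unlike miR-124-3p, miR-210-3p was also below wild-type in the other mutants, at 554 CPM in Eed-/- and 336 CPM in Ezh2-/-.

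Of the other microRNAs with the lowest ratios, several are known from differentiated cells. The smooth muscle microRNA miR-143-3p had 179 CPM in wild-type and 5.54 CPM in Jarid2-/-, 32.3-fold lower (24.2 to 44.0). Its neighbour miR-145a-5p had 1079 and 481 CPM and was 2.24-fold lower (2.17 to 2.32). MiR-211-5p, which is carried in an intron of the melanocyte gene Trpm1, had 2906 counts (122 CPM) in wild-type and 40 counts (4.71 CPM) in Jarid2-/-, 25.9-fold lower (19.0 to 36.3). Its near twin miR-204-5p had 34.9 and 4.48 CPM and was 7.80-fold lower (5.63 to 11.1). MiR-196a-5p, encoded among the Hox genes that pattern the body axis, had 1928 counts (81.0 CPM) in wild-type and 23 counts (2.71 CPM) in Jarid2-/-, 29.9-fold lower (19.9 to 47.3). In Ezh2-/- it stood at 80.4 CPM, near wild-type, and in Eed-/- at 323 CPM.

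The others of the 15 lowest names had from 229 to 15096 counts in wild-type. Mature names miR-6410, miR-6406 and miR-2137 stood 22.0-fold (17.1 to 29.0), 37.6-fold (19.0 to 87.4) and 16.3-fold (6.90 to 50.8) below wild-type, the last of them less than 2-fold lower with a pseudocount of 10 CPM. MiR-320-3p, which is made without Drosha, had 543.5 CPM in wild-type and 44.2 CPM in Jarid2-/- and was 12.3-fold lower (11.1 to 13.7), whereas Eed-/- had 579 and Ezh2-/- 517 CPM. The minor strands miR-15b-3p, miR-181d-3p, miR-30c-2-3p and miR-101a-5p, and miR-674-5p, the major strand of its hairpin in wild-type, were from 7.03-fold to 23.4-fold lower. Among them miR-15b-3p had 235 CPM in wild-type and 21.2 CPM in Jarid2-/-, 11.1-fold lower (9.56 to 12.9), while its partner miR-15b-5p, an inhibitor of cell cycle genes, was 1.58-fold higher (1.56 to 1.59) at 8007 CPM.

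The highest ratio was that of miR-466o-3p, a member of the large microRNA cluster in an intron of the Polycomb gene Sfmbt2, at chr2:10394216-10394237. It had 278 counts (11.7 CPM) in wild-type and 7156 counts (843 CPM) in Jarid2-/-, 72.2-fold higher (64.0 to 81.7). Its relatives differed far less, and miR-466b-3p had 1703 CPM in wild-type and 3971 CPM in Jarid2-/-, 2.33-fold higher (2.30 to 2.37). The 2 sequences are shown because they are the same family with different seed registers, again with bases 2 to 8 in capitals.
miR-466o-3p: uACAUACAugcacacauaagac
miR-466b-3p: aUACAUACacgcacacauaaga
Another family member, miR-669b-3p, had 22 counts in wild-type and 354 in Jarid2-/-, 45.1-fold higher (29.3 to 72.9), and its abundant partner miR-669b-5p was 1.64-fold higher (1.60 to 1.68) at 1189 CPM. Some members of this cluster held identical counts under different names. Both miR-466b-3p and miR-466c-3p had 40530 counts in wild-type and 33695 in Jarid2-/-, and both miR-669a-5p and miR-669p-5p had 31858 and 19720. Such names are not separate measurements. Other near-identical members may share reads as well, and no source used here states how such reads were assigned.

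The Sfmbt2 microRNAs are known from placenta. Their list was formed by family name and includes some loci elsewhere, such as miR-467h on chromosome 9. In it 55 of 132 tested loci were higher and 1 lower, beside 16.3% and 22.8% of all loci. The median log2 ratio was 0.80, beside -0.17 for all loci. Many of these loci carry the same sequence, and the 132 loci hold 66 mature names. The miR-466 branch had 33 of 41 loci, which hold 19 sequences, higher and 0 lower. Its distinct sequences summed to 4939 CPM in wild-type and 12131 CPM in Jarid2-/-, 2.46-fold higher (2.44 to 2.48). This sum holds both miR-466b-3p and miR-466e-3p, different sequences with the same counts (40530 in wild-type and 33695 in Jarid2-/-). The same reads may thus be counted more than once in it, and the interval does not allow for this. The miR-297 branch had 10 of 10 loci higher, but these hold only 4 sequences, with a summed level 2.25-fold (2.17 to 2.35) higher. The miR-467 and miR-669 branches had 6 of 29 and 6 of 52 loci higher, with summed levels 1.55-fold (1.52 to 1.57) and 1.52-fold (1.51 to 1.54) higher.

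The 5p arms of 2 hairpins of the miR-290 cluster were also among the 15 highest. MiR-294-5p, at chr7:3220656-3220677, had 2297 counts (96.5 CPM) in wild-type and 32281 counts (3804 CPM) in Jarid2-/-, 39.4-fold higher (37.8 to 41.1). MiR-295-5p, at chr7:3220780-3220801, had 1659 counts (69.7 CPM) in wild-type and 18601 counts (2192 CPM) in Jarid2-/-, 31.4-fold higher (29.9 to 33.1). Their 3p partners hardly differed, with miR-295-3p at 16574 CPM in wild-type and 16838 CPM in Jarid2-/-. Ezh2-/- had 17.5 CPM of miR-294-5p and 47.4 CPM of miR-295-5p, both below wild-type, whereas Eed-/- had 6968 and 706 CPM. Since all 3 mutants are set against the same wild-type column, these values are given side by side only.

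The miR-291b hairpin of that cluster was higher in both arms, with miR-291b-3p at 269 CPM in wild-type and 4570 CPM in Jarid2-/-, 17.0-fold higher (16.6 to 17.5). Its 5p arm was 7.93-fold higher (7.70 to 8.15). MiR-291b-3p differs in the seed from miR-291a-3p, an abundant member that had a log2 ratio of 0.07, and the pair is printed for that reason, with the seeds in capitals.
miR-291a-3p: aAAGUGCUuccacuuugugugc
miR-291b-3p: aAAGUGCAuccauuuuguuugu

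MiR-7b-5p was the highest microRNA outside these clusters. It had 465 counts (19.5 CPM) in wild-type and 6699 counts (789 CPM) in Jarid2-/-, 40.4-fold higher (36.8 to 44.5). The related miR-7a-5p, a regulator in neurons and endocrine cells, was 1.29-fold higher (1.28 to 1.31), at 3720 CPM in wild-type and 4805 CPM in Jarid2-/-. MiR-7b-5p accordingly made up 0.523% of the pair in wild-type and 14.1% in Jarid2-/-. In Ezh2-/- miR-7b-5p had 37.7 CPM, and in Eed-/- 1131 CPM. Among the other highest names, miR-5099 was 14.3-fold higher (13.8 to 14.7), miR-467h 12.1-fold (10.8 to 13.5), miR-126b-5p 9.08-fold (7.84 to 10.5), miR-672-5p 8.22-fold (7.86 to 8.60) and miR-378d 7.55-fold (6.74 to 8.47). The others of the 15 highest were minor strands of ES cell clusters: miR-17-3p was 10.2-fold higher (9.78 to 10.6), miR-20b-3p 8.37-fold (8.07 to 8.68) and miR-302d-5p 8.58-fold (7.84 to 9.40).

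Arms were compared systematically over the 231 hairpins whose arms both had 50 or more counts in either column. The log2 ratios of the arms differed by 2-fold or more in 107 hairpins (46.3%), and by 8-fold or more in 17. The median size of the difference was 0.90. In 3 hairpins 1 arm was called higher and the other lower: miR-124, miR-31 and miR-34a. MiR-31-5p had 8441 counts in wild-type and 795 in Jarid2-/-, while miR-31-3p had 1063 and 818, so that the 3p share went from 11.2% (10.6 to 11.8%) to 50.7% (48.2 to 53.2%). MiR-34a-5p, a p53 target that restrains proliferation, had 11211 CPM in wild-type and 4678 CPM in Jarid2-/-, 2.40-fold lower (2.37 to 2.42), and miR-34a-3p was 2.04-fold higher (1.93 to 2.14).

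The more abundant arm was not the same in the 2 genotypes for 16 hairpins, and miR-124, miR-22, miR-744 and miR-674 were among them. For miR-744 the 3p share was 59.9% (58.2 to 61.5%) in wild-type and 15.0% (13.8 to 16.2%) in Jarid2-/-. Summing the arms changed the size of several differences. The miR-124 hairpin as a whole was 5.66-fold lower (5.38 to 5.95), that of miR-22 17.5-fold (15.5 to 19.9) and that of miR-210 26.5-fold (24.9 to 28.1), while the miR-294 hairpin was 1.01-fold higher (1.01 to 1.02). Outside the imprinted cluster, the minor arm of wild-type was higher in 46 and lower in 34 of 185 hairpins, and the major arm was higher in 28 and lower in 39. The wild-type level labelled the arms and is also the denominator of the ratio. Part of this contrast can therefore come from the labelling, and no conclusion is drawn from it.

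**Figure D2:**
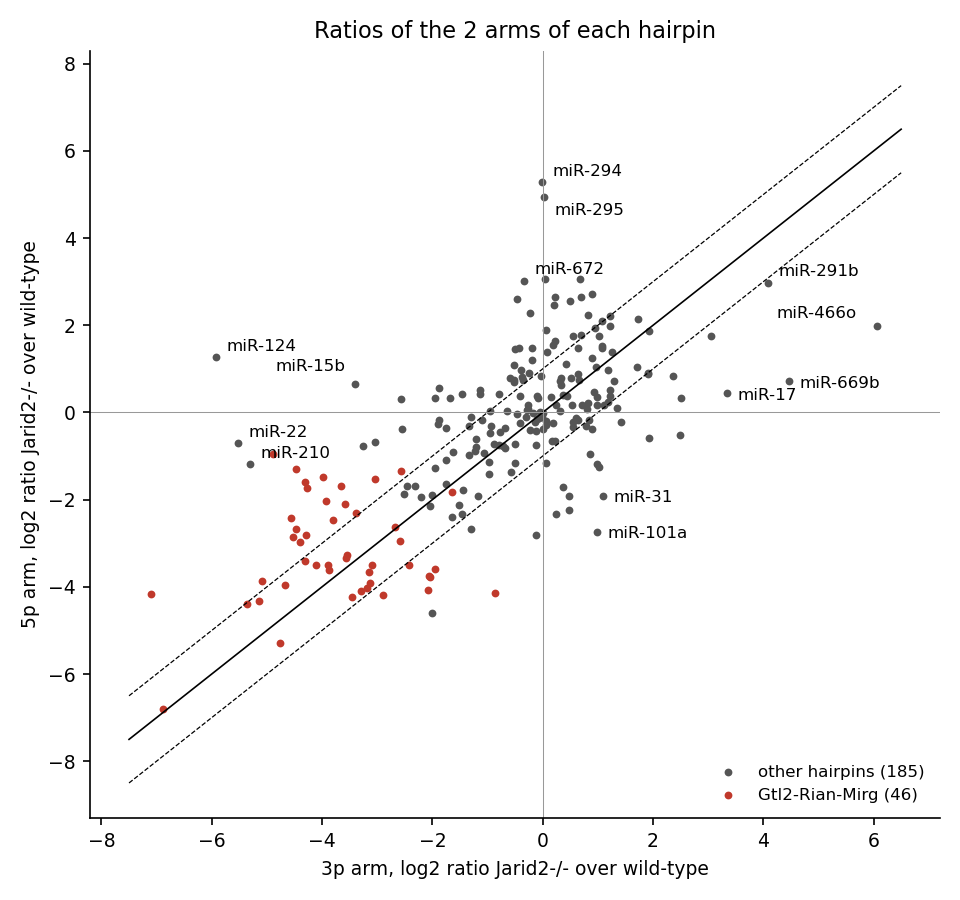
Log2 ratio of the 3p arm (horizontal) against that of the 5p arm (vertical) for 231 hairpins, 46 of them in the Gtl2-Rian-Mirg cluster (red); the solid line marks equal ratios and the dashed lines a 2-fold difference between arms. MiR-124, miR-22 and miR-210 lie far to the left of the line, miR-294 and miR-295 far above it.

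Pairs of near-identical microRNAs were treated the same way. Of 40 pairs that differ by 1 base, 13 differed by 2-fold or more in their ratio, with a median gap of 0.66 log2 units. In 17 pairs that have the same sequence over their shared length the median gap was 0.001, and the largest was 1.10, between miR-669m-5p and miR-466m-5p. Most of the 17 pairs held equal or nearly equal counts under both names. Their small gap was thus fixed in advance and is no measure of reproducibility. After miR-7a and miR-7b, the widest 1-base pair was miR-19b-3p with miR-19a-3p, both part of the growth-promoting miR-17 clusters. MiR-19b-3p had 62268 CPM in wild-type and 28217 CPM in Jarid2-/-, 2.21-fold lower (2.20 to 2.22). MiR-19a-3p had 2887 CPM in wild-type and 16260 CPM in Jarid2-/-, 5.63-fold higher (5.58 to 5.68). Together the pair was 1.46-fold lower (1.46 to 1.47), and the share of miR-19a-3p was 4.43% in wild-type and 36.6% in Jarid2-/-. MiR-23a-3p and miR-23b-3p were 3.20-fold (3.14 to 3.26) and 1.49-fold (1.47 to 1.51) lower, and let-7a-5p and let-7c-5p were 3.17-fold (2.90 to 3.46) and 6.60-fold (5.94 to 7.34) higher. No source used here states how reads with a mismatch were assigned between such neighbours, and the part of that step in these gaps was not tested.

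Members were also grouped by seed, with 1 locus per distinct sequence. Of 204 seed families with 100 CPM or more in either column, 40 were higher (19.6%) and 81 lower (39.7%). Many of the lower families held a single Gtl2-Rian-Mirg member, such as miR-409-3p or miR-337-3p. Outside that cluster, by locus rather than by family, 155 were higher and 120 lower of 847. The most abundant family in both columns was AAGUGCU, the seed of miR-294-3p, miR-295-3p, miR-291a-3p and the 3p arms of miR-302a, miR-302b and miR-302d. Its 6 sequences summed to 185925 CPM in wild-type and 189829 CPM in Jarid2-/-, with member log2 ratios from -0.01 to 1.22. The AAAGUGC family of miR-17-5p, miR-20b-5p and miR-106a-5p ranked 5 in wild-type, with 37134 CPM, and 2 in Jarid2-/-, with 76649 CPM, which was 2.06-fold higher (2.06 to 2.07). The CUCAAAC family, which holds miR-290a-5p, miR-292-5p and miR-293-5p, had 53221 CPM in wild-type and 75038 CPM in Jarid2-/-, and its members ranged from -0.93 to 2.64. The GCAGCAU family of miR-103-3p and miR-107-3p, regulators of metabolism, had 29589 and 48273 CPM, 1.63-fold higher (1.63 to 1.64). Families of 1 or 2 sequences held both ends of the range, from miR-409-3p at -7.10 to that of miR-466o-3p at 5.97.

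Lists of known families and clusters were set against the background of all 950 loci, of which 16.3% were higher and 22.8% lower. Highest by median was the cluster of miR-302 and miR-367, known from human and mouse pluripotent cells. It had 6 of 10 loci higher and 0 lower, a median of 1.20, and a sum of 7743 CPM in wild-type and 12785 CPM in Jarid2-/-, 1.65-fold higher (1.64 to 1.66). MiR-302d-3p had 3784 and 6049 CPM, and the most different member was miR-302d-5p, given above. The cluster of miR-183, miR-96 and miR-182, known from sensory cells, had 3 of 6 higher and 0 lower with a median of 1.04. All 3 of its higher loci were 3p arms, with miR-96-3p 5.96-fold higher (5.26 to 6.76), while the abundant miR-182-5p was 1.13-fold higher (1.13 to 1.14).

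The let-7 family, whose maturation Lin28 blocks in ES cells, had 8 of 19 loci higher and 1 lower with a median of 0.92. Its level stayed low, at 363 CPM in wild-type and 981 CPM in Jarid2-/- over distinct sequences, 2.70-fold higher (2.62 to 2.78). Let-7c-5p had 21.1 CPM in wild-type and 139 CPM in Jarid2-/-, and let-7b-5p had 4.16 and 35.8 CPM, 8.61-fold higher (6.84 to 10.9). Let-7i-5p did not follow, with 1.34 CPM in wild-type and 1.18 CPM in Jarid2-/-. The miR-17 family clusters had 11 of 30 loci higher and 2 lower with a median of 0.53. Among them miR-20b-5p had 7750 CPM in wild-type and 26222 CPM in Jarid2-/-, 3.38-fold higher (3.36 to 3.40), miR-18a-5p was 5.90-fold higher (5.83 to 5.98), and miR-92a-3p was 1.46-fold higher (1.45 to 1.46).

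At the other end, after the imprinted cluster, stood the Hox cluster microRNAs, with 0 of 7 higher, 4 lower and a median of -2.00. The 4 lower loci were those of miR-196a and miR-196b, whereas miR-10a-5p and miR-10b-5p had log2 ratios of -0.25 and -0.31. The families of miR-181, miR-221 and miR-222 had 0 of 13 higher and 8 lower (median -1.51), the miR-23/27/24 clusters 0 of 12 higher and 8 lower (-1.31), and the cluster from miR-322 and miR-503 to miR-450 on the X chromosome 0 of 13 higher and 8 lower (-1.22). Among their members miR-221-3p had 221 CPM in wild-type and 47.3 CPM in Jarid2-/-, 4.67-fold lower (4.22 to 5.18). MiR-27a-3p had 892 CPM in wild-type and 217 CPM in Jarid2-/-, 4.11-fold lower (3.92 to 4.31). MiR-322-5p had 1015 and 276 CPM, 3.68-fold lower (3.52 to 3.84), but miR-503-5p of the same cluster was 1.68-fold higher (1.39 to 2.02).

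The list of miR-99, miR-100 and miR-125 had 1 of 9 higher and 5 lower (median -1.07). The list of miR-29 with miR-34 had 1 of 18 higher and 6 lower (-0.87). MiR-29b-3p, a repressor of collagen and DNA methyltransferase genes, had 1888 CPM in wild-type and 562 CPM in Jarid2-/-, 3.36-fold lower (3.26 to 3.46). The miR-15/16 family had 0 of 10 higher and 5 lower with a median of -0.995, but its sum was 1.30-fold higher (1.29 to 1.31). The lower loci were miR-15a-5p and the 3p strands of miR-15a, miR-15b, miR-16-2 and miR-195a, and with arms summed per hairpin its median was 0.40. Muscle and mesenchymal microRNAs had 0 of 19 higher and 5 lower (median -0.54), the miR-30 family 0 of 12 higher and 2 lower (-0.60), blood cell microRNAs 1 of 7 higher and 2 lower (-0.86), and the X-linked germline cluster 0 of 19 higher and 1 lower (-0.55). Other imprinted microRNAs, those of the Gnas, Mest, H19 and Igf2 loci, had 0 of 10 higher and 3 lower (-0.48). Of all loci 22.8% were lower, and the shares lower in the miR-30 and X-linked germline lists were below this. Those in the muscle and mesenchymal, blood cell and other imprinted lists were near it.

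Several lists spread to both sides. Neural microRNAs had 8 of 47 higher and 10 lower with a median of -0.09, which was 0.30 on the authors' RPM scale. Their range ran from miR-124-3p to miR-7b-5p, and miR-9-5p had 2.44 and 2.36 CPM. The median was 0.12 for epithelial and endodermal microRNAs (4 of 22 higher, 3 lower), but -0.11 with arms summed per hairpin. In that list miR-205-5p had 1554 CPM in wild-type and 4088 CPM in Jarid2-/-, 2.63-fold higher (2.59 to 2.67), and miR-203-3p had 27.2 and 154 CPM, 5.66-fold higher (5.14 to 6.22). The families of miR-130, miR-301, miR-148 and miR-152 had 1 of 14 higher and 3 lower (median -0.19, and 0.31 on the RPM scale). The miR-26 and miR-101 families had 2 of 11 higher and 1 lower (-0.19, and 0.31 on the RPM scale). Within the latter, miR-101a-3p was 1.98-fold higher (1.92 to 2.03) and miR-101a-5p 7.82-fold lower (5.76 to 10.9). The miR-500 to miR-532 cluster (1 of 10 higher, 0 lower) had a median of 0.24, which was -0.25 per hairpin, and microRNAs made without Drosha (1 of 11 higher, 1 lower) had 0.11, which was -0.01 with both the imprinted and the miR-290 loci left out of the total. The hand-made list of miR-21, miR-22, miR-210 and miR-126 had 1 of 10 higher and 4 lower (-0.82), and miR-21a-5p, its most abundant member, was 1.24-fold lower (1.23 to 1.26).

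**Figure D3:**
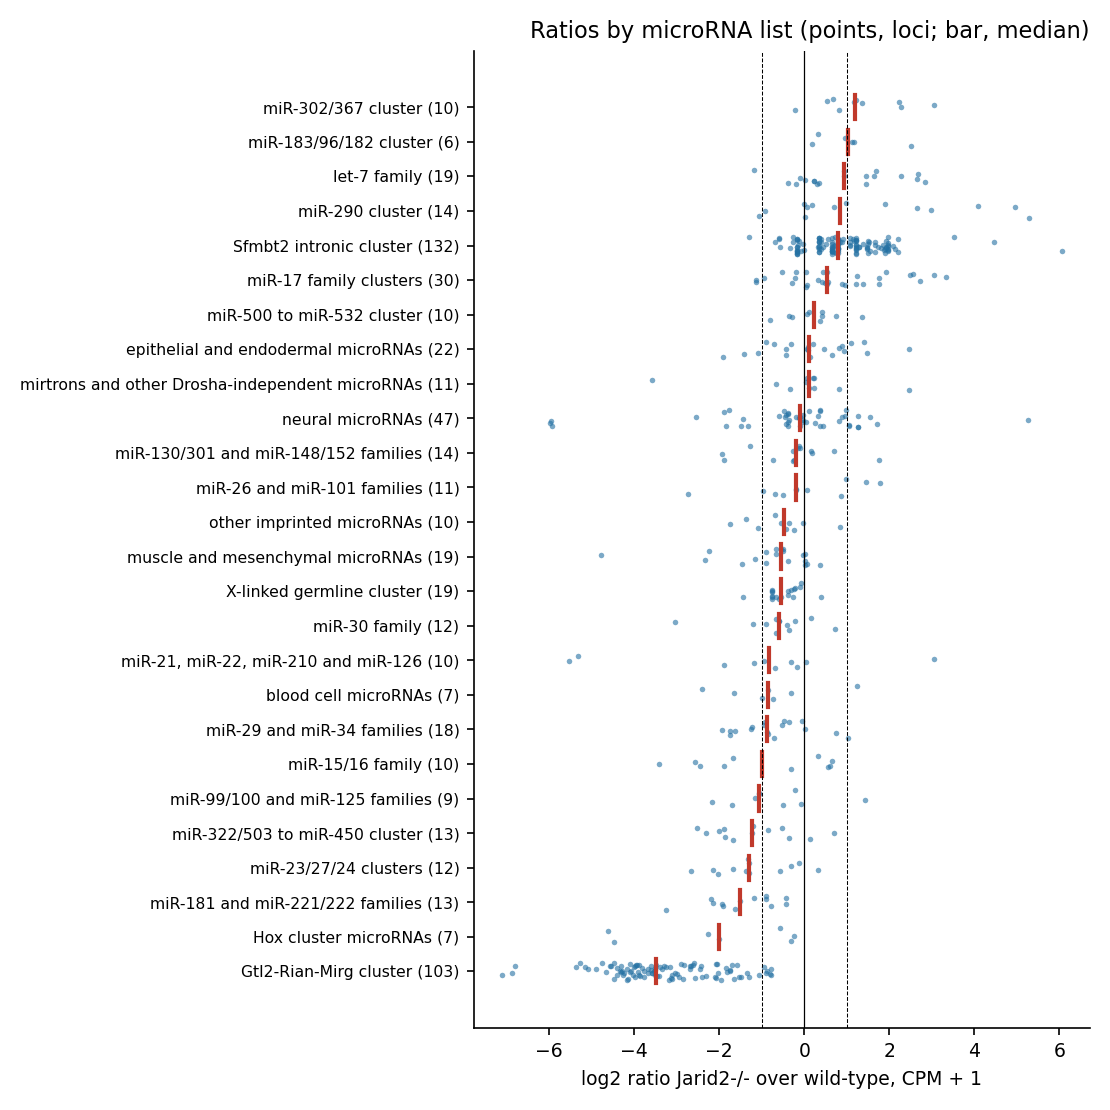
Log2 ratios of the tested loci (points) of 26 microRNA lists, ordered by their medians (red bars), with the number of loci in parentheses; dashed lines mark 2-fold. The Gtl2-Rian-Mirg cluster lies apart at a median of -3.49, and the cluster of miR-302 and miR-367 is at the top with 1.20.

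The Gtl2-Rian-Mirg members, which are processed from maternally expressed noncoding RNAs, had the lowest list median, and low ratios ran along the whole locus. The 30 tested members before the 90.8 kb gap between microRNAs had a median log2 ratio of -3.48, and the 73 after it -3.49. Differences within the cluster were nonetheless wide. The lowest, miR-409-3p, had 104289 counts (4383 CPM) in wild-type and 262 counts (30.9 CPM) in Jarid2-/-, 142-fold lower (126 to 161), and it lies at chr12:110981414-110981435. Its 5p arm was 18.7-fold lower (16.4 to 21.3). Both arms of miR-337 were among its 5 lowest, with miR-136-5p and miR-127-3p. Both arms were lower in 44 of the 46 hairpins of the cluster that could be compared, against 17 of the 185 outside it. The sequences of miR-409-3p and miR-127-3p, an antisense regulator of the imprinted gene Rtl1, are given as the most abundant of these 5 in wild-type.
miR-409-3p: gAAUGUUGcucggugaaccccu
miR-127-3p: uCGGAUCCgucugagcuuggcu
MiR-127-3p had 1955 CPM in wild-type, 46.3 CPM in Jarid2-/-, 152.2 CPM in Eed-/- and 1.22 CPM in Ezh2-/-.

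The 6 members not called lower all had log2 ratios below 0, from -0.95 to -0.78. They were the weakly expressed strands miR-410-5p, miR-493-3p, miR-299b-3p, miR-3070a-5p, miR-3070b-5p and miR-1197-5p, with 17 to 120 counts in wild-type and 0 to 18 in Jarid2-/-. Of the 98 members with 50 or more wild-type counts, 96 were lower. That minimum uses the wild-type column, the denominator of the ratio, so it favours lower calls and adds no support. Among members at 0 counts in Jarid2-/-, the most abundant in wild-type was miR-3070a-3p, with 128 counts, which was at least 15.2-fold lower against the limit of 3 counts per library. In all, 30 tested loci were at 0 in Jarid2-/- and 2 in wild-type, and 5 of the 30 were in the cluster. The wild-type column was 2.80-fold deeper, and a locus at 0 in 1 column could pass the filter only through the other. These counts at 0 are therefore not comparable between the genotypes.

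**Figure D4:**
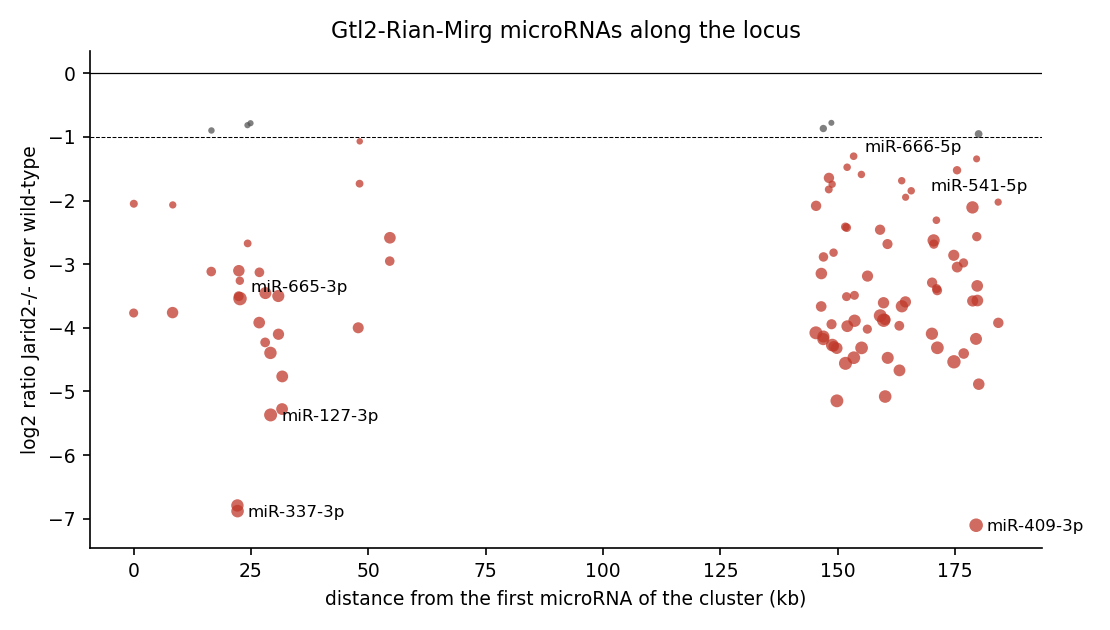
Log2 ratio of the 103 tested Gtl2-Rian-Mirg members by distance from the first microRNA of the cluster in kb; point size grows with the wild-type level, red points are called lower and grey points are not. All points lie below 0 on both sides of the 90.8 kb gap, from -7.10 for miR-409-3p to -0.78.

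Features of the mature sequence that the choice of loci had not used were also examined, over 733 names outside the imprinted cluster. The median GC content was 45.5% for names called higher, 50.0% for names called lower and 47.8% for the others. By length, names of 21 and 22 nt had median log2 ratios of -0.16 and -0.11, and those of 23 nt 0.11. Names starting with U had a median of -0.18 and those starting with A 0.01. Among 5-base words held by 15 or more of the 529 names with 50 or more counts, 177 words in all, the lowest median belonged to GCUGC. It was searched on the strand of the microRNA itself, overlaps the second lowest word UGCUG, and stands in 2.60% of all 2035 loci.

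The 15 names with GCUGC had a median log2 ratio of -1.91, with 9 lower and 1 higher, against -0.03 for the names without it. The same names had medians of -0.43 in Eed-/- and -0.54 in Ezh2-/- over wild-type. The word was picked for its value from all those scanned, so the number is a description. Most of the lower names are relatives and not independent members. The 5p partners of miR-15a-3p, miR-15b-3p, miR-16-2-3p, miR-195a-3p and miR-322-3p share a seed. MiR-103-1-5p and miR-103-2-5p differ by 1 base. Some of the lower names are printed here with the word in capitals.
miR-22-3p: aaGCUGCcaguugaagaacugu
miR-15b-3p: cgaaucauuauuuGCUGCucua
miR-15a-3p: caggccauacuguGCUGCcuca
miR-195a-3p: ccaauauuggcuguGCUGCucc
miR-103-1-5p: ggcuucuuuacaguGCUGCcuug
miR-322-3p: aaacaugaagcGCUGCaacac
MiR-15a-3p had 128 CPM in wild-type and 22.4 CPM in Jarid2-/-, and miR-322-3p had 63.8 and 10.4 CPM. Both are minor strands, and the word sits at different positions in them. Of the other names with the word, miR-106b-3p, miR-324-3p and miR-191-3p had log2 ratios of -0.28, 0.33 and 0.60.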

How the data were processed

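Small RNA reads were counted at mature microRNA loci of miRBase release 20, per the file headers. Cutadapt, Bowtie and build mm9 are named in the submitters' processing notes. Their versions, settings and handling of multiply matching reads were not stated. The deposited tables give the raw read count of each locus and the same value in RPM, whose denominators (246316316 for wild-type, 62259756 for Jarid2-/-), found by dividing deposited count by deposited RPM, exceed the microRNA totals. Some sequences stand at several loci, and whether their reads were repeated or divided among these is not known here. Summed levels took 1 locus per sequence, which left 81.5% of wild-type and 79.9% of Jarid2-/- counts. Sequences that differ but hold equal counts, such as miR-466b-3p and miR-466e-3p, were each included.

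Columns were matched to genotypes by name. The Jarid2-/- column carries the older gene name Jumonji, and the wild-type column names only the parental line, which is the least direct match. The planned edgeR quasi-likelihood test needs 2 or more columns per genotype and was replaced by its fallback, ratios with no test. The pseudocount was 1 CPM, the minimum 10 counts in either column and the call 2-fold. Intervals were Clopper-Pearson at 95%. Hairpin arms were paired by name and position within 100 nt. Calculations used Python 3.11.15, pandas 2.3.3, numpy 2.4.6 and scipy 1.17.1, and were tested on simulated counts. Of 1900 mature names, 1603 were in the RefSeq table and 1592 had the same sequence there.

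The members, lists and rules were chosen with earlier results of these data known. Named were, at 1 locus per name, the 15 highest and 15 lowest ratios outside the Gtl2-Rian-Mirg cluster and the 5 lowest inside it among names with 50 or more counts, its members not called lower, the most abundant names of each column and list, partner arms, the 8 widest arm differences, and the most abundant and most different seed families. Names beyond this rule (miR-744, miR-31, miR-297, miR-204-5p, miR-203-3p, miR-18a-5p, miR-9-5p, let-7b-5p, let-7c-5p, let-7i-5p, miR-10a-5p, miR-503-5p, members of near-identical pairs and of the GCUGC word) were chosen after their values were seen. Alternatives were TMM factors (edgeR 4.0.16), median-ratio factors (DESeq2 1.42.0), the RPM denominators, other count minimums and pseudocounts, rows merged by name, sequence or hairpin, and the wild-type column thinned to the Jarid2-/- total. Chromatin and messenger RNA samples were not analysed here, and Eed-/- and Ezh2-/- columns served as values beside named microRNAs.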

Additional observations from a re-analysis of the deposited data

How the results depend on the processing

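No paired analysis was possible because each genotype has 1 column and the wild-type column carries no replicate number, so no library could be left out either. Loci called higher numbered 155, but 256 with the RPM denominators, 95 with a pseudocount of 10 CPM and 79 with arms and copies summed per hairpin, where 124 rather than 217 were lower among fewer rows. The median log2 ratio of -0.17 became 0.21 with the RPM denominators, -0.059 with a minimum of 1 count, -0.048 with a pseudocount of 10 CPM and -0.28 when both the imprinted and the miR-290 loci were left out of the total. Of 26 lists, 19 kept the sign of their median in every alternative run, and the 7 others are given with their values in the text or here: the miR-26 and miR-101 families also stood at 0.88 per hairpin and 0.06 without multi-copy loci. Of 80 called microRNAs among the 150 named by the rule with a value, 66 were called in the same direction in every alternative that gave them a value, and none was reversed where it had one. Leaving out multi-copy loci gave a value for 66 of the 80. Merging rows by sequence and leaving out multi-copy loci were chosen after the data were seen. The cause of these changes was not tested. Depth limits loci near 10 counts, where the Jarid2-/- column stands for 1.18 CPM and the wild-type column for 0.420 CPM.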
